A study of Mus musculus with 15 samples.

Results

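Ion channels and neurotransmitter receptors were examined in mouse cells in which Zscan4 had been raised or lowered. The genes were chosen by symbol: sodium channels (Scn), potassium channels (Kcn), calcium channels (Cacn), nicotinic acetylcholine receptors (Chrn), ionotropic glutamate receptors (Gri), metabotropic glutamate receptors (Grm), GABA receptors (Gabr) and dopamine receptors (Drd). In all, 201 genes matched, 196 of the 51627 genes in the table of embryonic stem cells (ESCs) and 201 of the 53564 genes in the embryo table. The families were picked with the ESC results already known, in which the dopamine receptor gene Drd3 and the nicotinic receptor gene Chrnb4 stood out, so the ESC values of all these genes are given as a description. The embryo comparison was tested.

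RNA was measured in 4 libraries of J1 cells, a mouse ESC line grown without feeder cells: 2 with Zscan4 overexpression and 2 wild-type controls. A further 11 libraries came from 2-cell embryos, 6 with Zscan4 RNAi and 5 wild-type controls. Zscan4 genes encode zinc finger proteins and are switched on at the 2-cell stage and now and then in single ESCs. The labels give neither the construct and promoter used for overexpression, nor the RNAi reagent, the mouse strain or the number of embryos in a library, and they do not say whether the replicates came from separate cultures or embryo pools, and a p-value here sets a difference against the spread between libraries alone.

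Read numbers had been divided by a size factor for each library, and the quotients are called normalised reads. Depth was 21820093 to 26555027 gene reads in the ESC libraries and lower, 695524 to 1432566, in those of embryos, so that 1 read was worth 0.687 to 1.39 normalised reads in an embryo library. The summed level of the 9 Zscan4 genes was 20005 and 19449 normalised reads in the overexpression ESCs, against 152 and 212 in the control ESCs. In embryos the sum lay between 13.9 and 383 in the 6 RNAi libraries and between 345 and 1064 in the 5 control libraries, with control 5, at 345, inside the RNAi range. Of the stem cell markers, all 10 were measured in the ESCs and 2 (Zfp42 and Sall4) were higher with overexpression. Neuron markers were present at a summed 5919 to 8044 normalised reads with overexpression, against 9251 to 9616 in the controls, with Dcx at 0 in all 4 libraries.

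Voltage-gated sodium, potassium and calcium channels open and close with the membrane potential, and their auxiliary subunits set how they gate and how much of them reaches the membrane. Receptors for acetylcholine, glutamate, GABA and dopamine read out transmitters, either as ion channels themselves or through G proteins. These genes are best known from neurons, muscle and endocrine cells, and most of them are held at low levels in other tissues. Potassium and calcium channels also act in eggs, sperm and dividing cells.

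In ESCs most of these genes were weakly transcribed. No read was found in any ESC library for 17 of the 196, and 20 more had reads but stayed under the filter, which asked for 1 normalised read or more in 2 or more libraries; this left 159. Per kilobase of exon, Kcnk1, a two-pore potassium channel, stood at 233 normalised reads in the overexpression ESCs and 327 in the control ESCs, the highest control level of any member. Kcnk5, another two-pore potassium channel, stood at 331 with overexpression and 245 in controls.

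Drd3, a D2-type dopamine receptor gene (chromosome 16, positions 43754026 to 43822932, mm10), had 2368 and 1172 normalised reads in the overexpression ESCs, against 10.5 and 9.36 in the control ESCs. Both overexpression libraries were far above both controls, and the first was higher than the second. The ratio of the means was 178.5 (log2 fold change 7.26, SE 0.42, on the log2(value + 1) scale used throughout). The 4 other dopamine receptor genes had lower means with overexpression than in controls. Drd1, the D1-type receptor, had no read in either overexpression library, against 42.9 and 39.3 normalised reads in the controls, at least 26.0-fold lower when 3 reads over the group are taken as the floor. Drd4 stood at 17.3 and 14.3, against 34.3 and 33.7.

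Grin2a, an NMDA receptor subunit, stood at 180.5 and 219 normalised reads with overexpression and at 12.4 and 15.0 in controls (log2 fold change 3.77, SE 0.32). Gabra3, an alpha subunit of GABA-A receptors, was low throughout but higher with overexpression. It had 11.9 and 13.1 normalised reads with overexpression, against 0.952 and 0.936, or 24 reads against 2, a ratio of 13.1 (95% exact binomial interval 3.26 to 115). Its log2 fold change lay between 1.56 and 3.73 over the alternatives, and its call was lost in 5 of 16, among them DESeq2. For Grin2a and Gabra3 both overexpression libraries lay above both control libraries.

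Chrnb4, the beta 4 subunit of nicotinic receptors (chromosome 9, positions 55028154 to 55048779), had no read in either overexpression library, against 157 and 148 normalised reads in the control libraries, at least 96.7-fold lower. Its neighbours in the same gene cluster were low in both groups: Chrna5 stood at 4.56 and 8.35 with overexpression, against 25.7 and 11.2, and Chrna3 at 1.82 and 0, against 0 and 1.87. The log2 fold change of Chrna5 was -1.33 and that of Chrna3 -0.01. Chrnd, a muscle-type nicotinic subunit, had 1 read over the overexpression group and 74 in the controls (ratio of the reads 67.6, 95% exact binomial interval 11.8 to 2707). Chrna10, known from hair cells, was not detected with overexpression, against 21.9 and 19.7 normalised reads, at least 13.2-fold lower, and its exons overlap those of Art1.

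Glutamate receptor genes differed in both directions. Grin2c, an NMDA subunit, had 4.56 and 8.35 normalised reads with overexpression, against 216 and 182 (log2 fold change -4.79, SE 0.41), and Grin1, the subunit all NMDA receptors need, had 72.0 and 91.8, against 339 and 286 (-1.92, SE 0.26). Grin2a, above, went the other way. Grm4, a G protein-coupled glutamate receptor, stood at 6.38 and 4.77 with overexpression, against 182 and 162 in controls (-4.73, SE 0.35). The 6 AMPA and kainate receptor subunits tested, which carry fast excitatory currents, had a median log2 fold change of -0.78.

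Of the 11 sodium channel genes tested, 6 were lower in limma, and of the 25 calcium channel genes 7 were lower and 2 higher, against 11.4% lower and 11.7% higher among all genes tested. Sodium channel beta subunits steer the surface level and gating of the pore subunits. Scn4b, one of them, was at 5.47 and 4.77, against 71.4 and 64.6 (log2 fold change -3.50), where both overexpression libraries lay below both controls. Of the same kind, Scn3b averaged 49.5 ± 17.7 with overexpression and 227 ± 14.8 in controls, and Scn2b 25.2 ± 12.0 and 112 ± 13.4 (SD, n = 2 each). Scn9a, the pore subunit known for pain-sensing neurons, had no read with overexpression and 16.2 and 21.5 normalised reads in the controls. Cacna1h, a low-voltage-activated (T-type) calcium channel, had 34.6 and 32.2 with overexpression, against 540 and 598 (-4.05, SE 0.24), and Cacna1g, of the same type, 31.9 and 20.3, against 141 and 130 (-2.37, SE 0.36). Cacnb3, an auxiliary beta subunit, and Cacna1s, the pore subunit of the skeletal muscle channel, were the calcium channel genes higher with overexpression, at 1608 and 2272 against 730 and 675 for Cacnb3 and at 112 and 118 against 30.5 and 33.7 for Cacna1s.

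The Cacng genes, which encode calcium channel gamma subunits and partners of AMPA receptors, had log2 fold changes of both signs. Cacng6 on chromosome 7 stood at 96.6 and 79.9 with overexpression, against 459 and 432 (log2 fold change -2.33). The next gene along, Cacng8, stood at 58.3 and 89.4, against 1.90 and 15.0 (3.43, not past the threshold in limma, SE 0.93), and Cacng7 beside it at 826 and 1284, against 582 and 553 (0.86). Cacng5 on chromosome 11 had 3 reads over the overexpression group and 111 in the controls. Chromosome 11 as a whole leaned lower, with a median log2 fold change of -0.49 over its tested genes, and 7 of the 44 genes past the threshold lie there.

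Potassium channels are the largest family, with 91 genes in the ESC table. Kcns3, a modifier of voltage-gated channels, was higher, at 260 and 174 with overexpression, against 66.7 and 78.6. Of the 71 tested in this family, 11 were lower in limma, against 11.4% of all genes tested. Kcnq1, the channel with the most negative log2 fold change among them (-3.88), had 2 reads over the overexpression group and 60 in controls, and its call was lost in 8 of 16 alternatives. The calcium-activated channel Kcnma1 had 1 read over the overexpression group and 22 in controls, and its call was lost in 10 of 12 alternatives. The smallest difference was that of Kcnh2, the channel of the cardiac repolarising current, at 235 and 248 against 496 and 484 (-1.02, SE 0.19). The potassium channel family summed to 5390 ± 6.21 normalised reads with overexpression and 6636 ± 111 in controls (SD, n = 2 each). The 10 two-pore potassium channels tested had a median log2 fold change of -0.20 and the 9 inward rectifiers one of -0.48.

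Summed by family, the dopamine receptors stood at 1793 ± 841 normalised reads with overexpression and 98.8 ± 19.2 in controls (SD, n = 2 each, as for the sums that follow), nearly all of it Drd3. Sodium channels summed to 591 ± 71.9 with overexpression and 1408 ± 90.6 in controls, nicotinic receptors to 399 ± 46.1 and 850 ± 32.4, and metabotropic glutamate receptors to 65.6 ± 21.9 and 273 ± 16.7. Calcium channels summed to 4268 ± 647 with overexpression and 4260 ± 68.7 in controls, so the single genes differed while the family total did not move beyond its spread. GABA receptors summed to 480 ± 124 with overexpression and 668 ± 19.2 in controls, AMPA and kainate receptors to 1029 ± 100 and 1239 ± 22.5, and NMDA receptors to 386 ± 86.6 and 637 ± 61.2. Apart from the dopamine receptors and calcium channels, each of these sums, and that of the potassium channels, was lower in both overexpression libraries than in both controls. The ionotropic glutamate receptors are given here by class, and the sum of that whole family was not lower with overexpression.

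The remaining genes lower with overexpression lay between log2 fold changes of -3.88 and -1.16. They were the voltage-gated potassium channels Kcnq1, Kcna6, Kcnc1 and Kcnc4, the calcium-activated Kcnn4 and the sperm channel Kcnu1, and the auxiliary subunits Kcnip2, Kcnab2 and Kcnab3. They also included the sodium channel Scn11a, the calcium channel genes Cacna1a, Cacna1b and Cacnb1, the GABA receptor genes Gabra4 and Gabrp, the nicotinic Chrna4 and the NMDA subunit Grin2b. Gabrp had 98.5 and 34.6 normalised reads with overexpression, against 404 and 423 in controls, and is the most abundant GABA receptor gene in control ESCs per kilobase.

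Counted over all families, 9 of the 159 members tested (5.66%) were higher with overexpression in limma (Benjamini-Hochberg adjusted p under 0.05), against 11.7% of all 20888 genes tested, and 35 (22.0%) were lower, against 11.4% of all genes tested. The log2 fold change was negative for 111 members and positive for 48. The median over the 159 was -0.69 and the median over all genes -0.02. The 6 members that had no read in 1 group lay well below the member median, so setting them at their bound could not move it. The families were chosen from this contrast, so nothing is read from these shares. Some of the called members also met the filter only through the group where they were high. Chrnb4, Drd1, Chrna10, Scn9a, Gabra4 and Scn11a, with no read in the other group, did so through their controls. Chrnd and Kcnma1 would not have met it on their overexpression libraries alone, and Gabra3 met it only through those libraries. In voom with quality weights, 7 members were higher and 15 lower of 110 tested, against 2310 and 1457 of all 16335 genes tested there.

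These counts rest on the controls. With either control library left out and the tested genes kept, 0 members and 0 of 20888 genes passed in limma, while 44 members and 3617 genes (without control 1), or 35 members and 3646 genes (without control 2), had an unadjusted p under 0.05. With the filter applied again to the remaining libraries, 21 members passed in each case, 5 higher and 16 lower. The median SD over genes on the log2 scale was 0.41 with overexpression and 0.09 in the controls. Without overexpression library 1 the median log2 fold change was -0.76 over the members and -0.01 over all genes tested. Without overexpression library 2 it was -0.48 and 0.02. Of the 44, 17 have exons that overlap another gene, among them Cacna1h, Chrna10 and Kcnq1, and their values are uncertain, as no source used here says whether counting used strand. In these bulk cultures, fewer cells of a type and less RNA per cell cannot be told apart.

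Genes of related function were counted the same way, to be read against 11.7% higher and 11.4% lower among all genes tested. Of 80 other ion channels tested, 7 were higher and 19 lower in limma, including Trpm3, a cation channel of the TRP family, at 1047 to 1627 normalised reads with overexpression and 14.3 to 21.5 in controls, and Asic1, an acid-sensing channel, at 32.8 to 42.9 against 304 to 306. Of 28 other neurotransmitter receptors, 5 were higher and 7 lower, and of 39 channel and receptor partners 4 were higher and 8 lower, Fgf12, which binds sodium channels, standing at 1061 to 1135 with overexpression and 10.3 to 11.4 in controls. Of 32 genes of transmitter synthesis and transport, 2 were higher and 3 lower. Among REST, the repressor of neuronal genes, and its partners, 1 of 14 (Hdac1) was higher. Of the other cell types' markers tested, 4 of 9 neuron markers, 4 of 8 muscle markers and 2 of 4 fibroblast markers were lower, while the neuron marker Tubb3 and the fibroblast markers Col1a2 and Col3a1 were higher. Among endocrine markers 1 of 3 tested (Chga) was lower, and among 5 neural progenitor markers Nes was higher and Pax6 lower. The oocyte markers Zp3 and Bmp15, of 5 tested, were higher, and that list summed to 332 to 638 normalised reads with overexpression and 89.9 to 110 in controls. The muscle list summed to 1136 to 1389 normalised reads with overexpression and 1872 to 1914 in controls; the part of these cell types in the channel values was not tested.

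**Figure D1:**
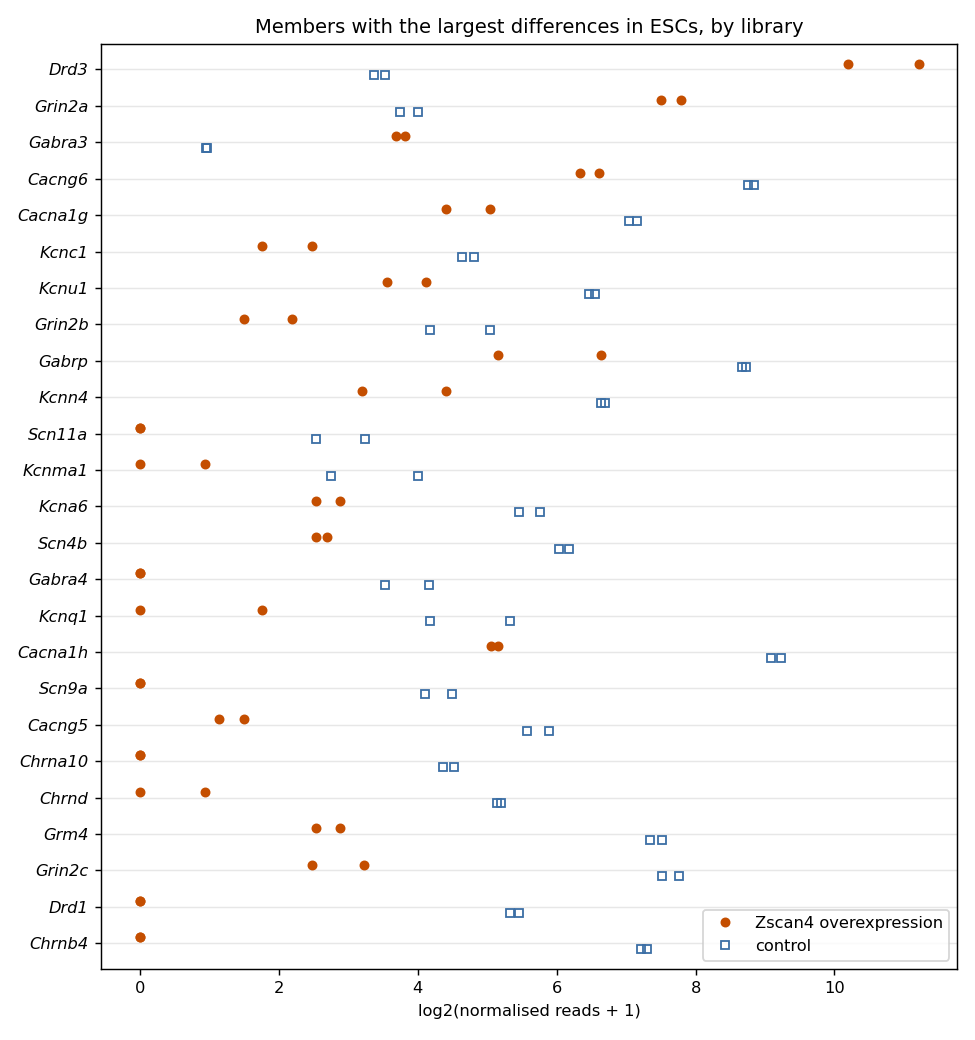
Normalised reads, as log2(value + 1), of the members with the largest differences in ESCs, 1 row per gene with overexpression libraries as filled circles above control libraries as open squares (n = 2 each). Drd3 and Grin2a stand far to the right of their controls, and Chrnb4, Drd1, Chrna10, Scn9a, Gabra4 and Scn11a have no read in the overexpression libraries.

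**Figure D2:**
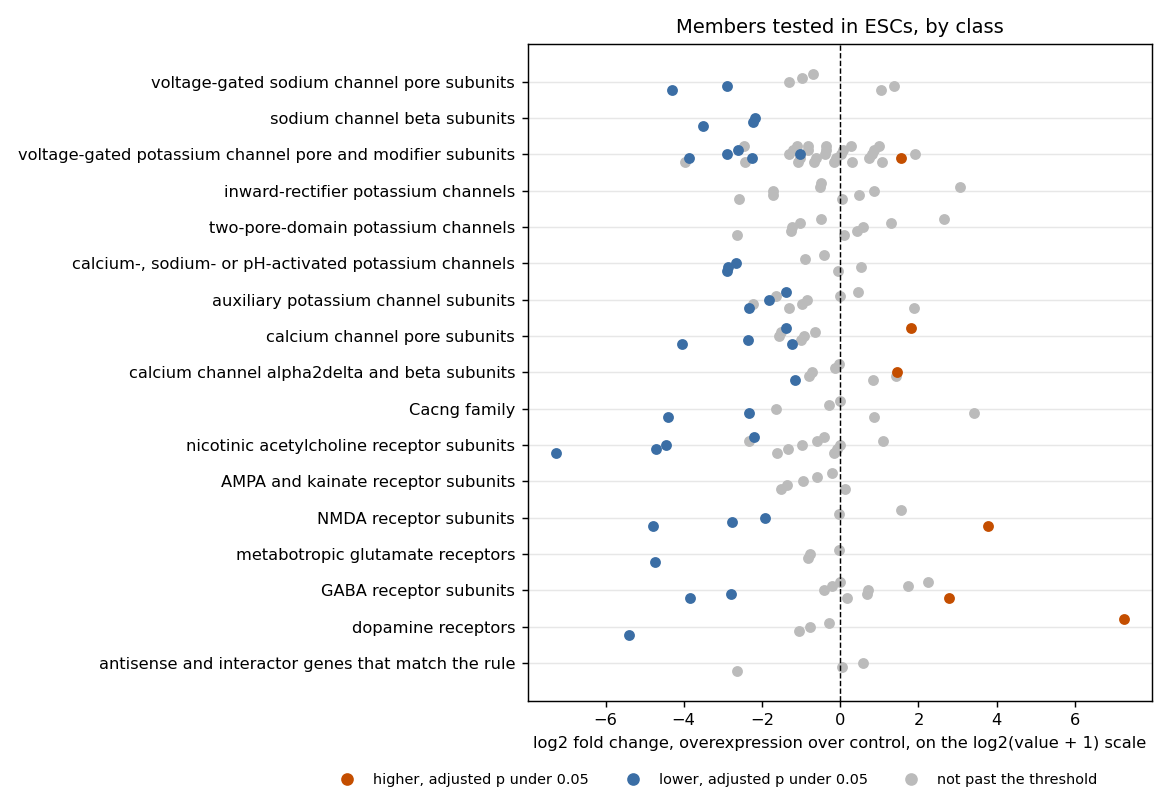
Log2 fold change of 154 of the 159 members tested in ESCs, 1 point per gene, grouped by class; the dashed line is the median of all genes tested (-0.02). Orange points were higher and blue points lower with overexpression in limma at an adjusted p under 0.05, 6 and 34 genes of those plotted. Drd3 is the point farthest right and Chrnb4 the point farthest left.

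The promoters of 6 members are shown with CG dinucleotides in capitals, as examples with few and with many CG. They were chosen after their values were seen, and are not the 6 members with the largest changes. Each runs from 250 bases before to 50 bases after the gene's start in RefSeq (build GRCm38.p6), and 147 of the 201 members have an entry. The promoter of Drd3 belongs to a start 8195 bases from the gene start of GENCODE, so it may not be the promoter in use in these cells.
Drd3 (chr16:43761971-43762270, plus strand, overexpressed ESCs higher): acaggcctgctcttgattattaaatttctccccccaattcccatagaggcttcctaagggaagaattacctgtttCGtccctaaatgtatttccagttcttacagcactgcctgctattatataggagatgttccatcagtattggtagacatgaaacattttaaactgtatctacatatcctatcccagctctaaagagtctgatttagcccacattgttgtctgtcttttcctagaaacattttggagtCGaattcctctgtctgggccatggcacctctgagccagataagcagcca
Gabra3 (chrX:72656758-72657057, minus strand, overexpressed ESCs higher): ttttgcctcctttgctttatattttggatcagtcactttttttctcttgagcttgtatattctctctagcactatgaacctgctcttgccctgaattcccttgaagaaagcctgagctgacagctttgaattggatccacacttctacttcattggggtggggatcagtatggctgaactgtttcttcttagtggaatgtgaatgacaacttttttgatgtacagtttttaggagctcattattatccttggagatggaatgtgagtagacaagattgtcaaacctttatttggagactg
Chrnb4 (chr9:55048495-55048794, minus strand, overexpressed ESCs lower): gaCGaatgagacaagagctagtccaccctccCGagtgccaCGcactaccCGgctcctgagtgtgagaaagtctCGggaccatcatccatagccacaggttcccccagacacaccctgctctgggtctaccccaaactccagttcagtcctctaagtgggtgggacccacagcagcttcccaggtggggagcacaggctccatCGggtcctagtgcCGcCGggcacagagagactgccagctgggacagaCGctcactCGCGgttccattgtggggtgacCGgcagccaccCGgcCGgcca
Drd1 (chr13:54055609-54055908, minus strand, overexpressed ESCs lower): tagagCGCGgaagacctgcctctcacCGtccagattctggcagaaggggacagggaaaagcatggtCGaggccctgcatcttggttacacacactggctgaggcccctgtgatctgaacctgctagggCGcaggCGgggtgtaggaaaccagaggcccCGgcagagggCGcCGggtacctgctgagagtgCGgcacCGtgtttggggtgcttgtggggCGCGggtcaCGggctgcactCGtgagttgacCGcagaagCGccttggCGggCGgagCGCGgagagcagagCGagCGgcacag
Grin2c (chr11:115267194-115267493, minus strand, overexpressed ESCs lower): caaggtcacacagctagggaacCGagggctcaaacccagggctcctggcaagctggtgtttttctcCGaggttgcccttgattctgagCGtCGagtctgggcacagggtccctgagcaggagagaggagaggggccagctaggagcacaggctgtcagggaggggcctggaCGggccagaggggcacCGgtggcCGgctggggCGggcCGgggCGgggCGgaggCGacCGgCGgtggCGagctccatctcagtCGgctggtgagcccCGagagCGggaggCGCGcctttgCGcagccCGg
Kcnk5 (chr14:20181733-20182032, minus strand, RNAi embryos lower): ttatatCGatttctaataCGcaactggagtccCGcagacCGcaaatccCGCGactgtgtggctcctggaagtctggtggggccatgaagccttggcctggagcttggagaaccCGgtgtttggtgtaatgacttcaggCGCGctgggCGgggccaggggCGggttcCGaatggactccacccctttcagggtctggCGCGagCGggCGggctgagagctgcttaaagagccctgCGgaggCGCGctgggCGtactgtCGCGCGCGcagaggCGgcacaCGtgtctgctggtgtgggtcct

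The 300-base promoter windows held 2 CG dinucleotides for Drd3 and 0 for Gabra3, against 14 for Chrnb4, 23 for Drd1 and 22 for Grin2c. Among other members lower with overexpression the window held 1 CG for Chrna10, 2 for Scn2b, 3 for Scn11a, 4 for Gabrp and 6 for Kcnn4, so low counts occurred there too, and for the higher Cacna1s and Kcns3 it held 9 each. Over all 32851 promoters the median was 7 CG and over the 147 members 11. The 5 promoters of members higher with overexpression had a median of 7 (quartiles 2 to 9). The 24 of members lower with overexpression had a median of 17.5 (quartiles 8 to 27.75). The 86 of members tested in ESCs but not past the threshold had a median of 13 (quartiles 5.25 to 23.75). The families were chosen with the ESC values known, so nothing is read from these medians. The Zscan4 motif TGCACAC, searched on both strands, was in 8 of the 147 member promoters (5.44%), against 4.40% of all promoters, and in none of the 29 promoters of members past the threshold in ESCs. The left part of the REST motif, TTCAGCACC, also on both strands, was in 2 member promoters (1.36%), those of Grm2 and Kcnh6, against 0.371% of all. A motif match is a description of the letters, and no match says only that these letters are not in this window.

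Embryos of the 2-cell stage were tested separately. No read was found in any embryo library for 51 of the 201 genes, another 79 had reads below the filter (1 normalised read or more in 5 or more libraries), and 71 were tested. The most abundant per kilobase in the control embryos was Grm2, a metabotropic glutamate receptor, at 103 normalised reads per kilobase in the RNAi embryos and 44.3 in the controls, followed by Kcnk5 at 3.47 with RNAi and 11.1 in controls. The metabotropic glutamate receptors summed to 664 ± 329 normalised reads with RNAi (SD, n = 6) and 257 ± 60.5 in controls (n = 5). Over all members the summed level was 1349 ± 423 normalised reads in the RNAi libraries (SD, n = 6) and 782 ± 132 in the controls (n = 5). Much of that difference lay in Grm2, at a mean of 506 with RNAi and 217 in controls, and Grm4, at 140 and 28.2.

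Grm4 rose with RNAi. It stood at 148, 102, 218, 85.9, 142 and 144 normalised reads in the 6 RNAi libraries, against 30.2, 8.11, 43.1, 11.7 and 47.9 in the 5 controls. All RNAi libraries lay above all control libraries, and the difference was a log2 fold change of 2.50 (SE 0.43, limma Benjamini-Hochberg adjusted p = 0.00233). It passed the threshold in all 20 alternative settings, with log2 fold changes from 2.15 to 2.91.

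Grin2d, an NMDA receptor subunit, fell. It had 1.37, 2.46, 0, 0, 0 and 3.47 normalised reads in the RNAi libraries, against 24.3, 8.85, 29.2, 17.6 and 7.82 in the controls. No RNAi library reached the lowest control (log2 fold change -3.18, SE 0.63), and the call held in all 18 settings where it could be tested. Grin2d met the filter only through its control libraries, the group where it was high, so its values are given as a description. Its exons overlap those of Gm45441. Kcnk6, a two-pore potassium channel, fell to 0, 4.10, 0, 0, 0.902 and 0 in the RNAi libraries, against 12.6, 5.90, 30.6, 29.3 and 0 in controls (-2.74, SE 0.80). Its control 5 was at 0 as well, and the call was lost without control 3 or without control 4 in turn. Kcnk6 would not have met the filter on its RNAi libraries alone either, so its values are a description too.

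Kcnk5, which like Kcnk6 carries a background potassium current, had 18.5, 15.6, 0, 11.6, 19.8 and 5.21 normalised reads in the RNAi libraries, against 21.8, 39.8, 23.7, 31.6 and 71.4 in controls (log2 fold change -1.97, SE 0.67, limma adjusted p = 0.0454). The groups did not overlap, but the call was lost in 14 of 20 settings. Of the genes that rose besides Grm4, Kcnma1, the pore of the large-conductance calcium-activated potassium channel, had 10.3, 14.8, 11.7, 38.3, 7.21 and 9.55 in RNAi libraries, against 2.52, 1.48, 4.17, 1.17 and 6.84 in controls (1.90, SE 0.58, adjusted p = 0.0292). Kcnmb3, a beta subunit of that channel, had 37.8, 34.4, 33.9, 69.7, 18.0 and 15.6, against 5.03, 14.8, 4.17, 11.7 and 16.6 (1.65, SE 0.50, adjusted p = 0.0276), where the lowest RNAi library lay below the highest control. Kcnma1's exons overlap 4930519K11Rik, and its call was lost in 5 of 18 settings, that of Kcnmb3 in 5 of 20.

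Kcnh2 had 29 reads over the RNAi group and 1 in the controls, a ratio of 22.7 with a 95% exact binomial interval of 3.77 to 928. It met the filter only through its RNAi libraries, the group where it was high, so its values are given as a description. In 1 RNAi library it had no read, and its call (log2 fold change 1.92, SE 0.62) was lost in 9 of 17 settings. Grm2, the most abundant member, had 383, 276, 645, 1084, 452 and 197 in the RNAi libraries and 223, 143, 228, 238 and 252 in the controls; the difference missed the threshold (log2 fold change 1.02, SE 0.36, limma adjusted p = 0.0526) and passed in 10 of 20 alternatives. Its exons overlap Gm28111.

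Altogether 4 of the 71 members tested (5.63%) were higher with RNAi in limma, against 6.13% of all 16417 genes tested, and 3 (4.23%) were lower, against 12.0% of all genes tested. The 4 include Kcnh2, which met the filter only through its RNAi libraries. The 3 include Grin2d and Kcnk6, which would not have met it on their RNAi libraries alone. The log2 fold change was positive for 49 members and negative for 22, and its median was 0.54 over the members and -0.03 over all genes. The split of calls differed between settings: 5 higher and 2 lower with TMM, 7 and 2 with quantile normalisation, and 6 and 2 in edgeR, where Grin2d and Kcnk6 kept their calls and Kcnk5 did not. In voom with quality weights it was 7 and 0 of only 24 members tested, and Grin2d and Kcnk6 were not among the genes tested there. Over all 16417 genes the split was 1181 and 1758 with TMM, 1396 and 1609 with quantile normalisation, and 925 and 1244 in edgeR. Over the 9453 genes tested in voom it was 1638 and 1916. With 1 library left out, 1 member was higher without control 1 and 2 were higher without control 2, control 3, RNAi library 3 or RNAi library 4, while 1 was lower without control 3 or control 4. Over all genes, 508 to 1303 were higher and 1213 to 2275 lower with 1 library left out. Oocyte and early embryo markers were measured beside these genes: 3 of 10 (Gdf9, Bmp15 and Btg4) rose with RNAi and their list summed to 10825 to 28836 normalised reads in the RNAi libraries, against 9594 to 15919 in the controls. Of 4 neuron markers tested, Tubb3 and Syt1 rose. Of 10 stem cell markers Klf4 and Dppa5a fell, and of 14 genes for REST and its partners Rcor1 and Hdac1 fell. Of 46 other ion channels tested 2 were higher and 3 lower, and of 11 other neurotransmitter receptors 1 and 1. Of 17 genes of transmitter synthesis and transport 1 was higher and 3 lower, and of 22 channel and receptor partners 1 and 2. Cumulus and granulosa markers summed to 4.92 to 9.61 in the RNAi libraries and 2.52 to 4.89 in the controls, and the part of any of these in the channel values was not tested.

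Drd3 and Chrnb4, the genes that differed most in ESCs, were near zero in embryos. Drd3 had 5.21 normalised reads in RNAi library 6 and none in the other 5 RNAi libraries, against 0, 5.90, 0, 1.17 and 1.96 in the controls, and was not tested. Chrnb4 stood at 0, 0, 1.30, 1.16, 1.80 and 1.74 with RNAi, against 0, 0, 0, 0 and 4.89 (log2 fold change 0.36, SE 0.57, limma adjusted p = 0.696).

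**Figure D3:**
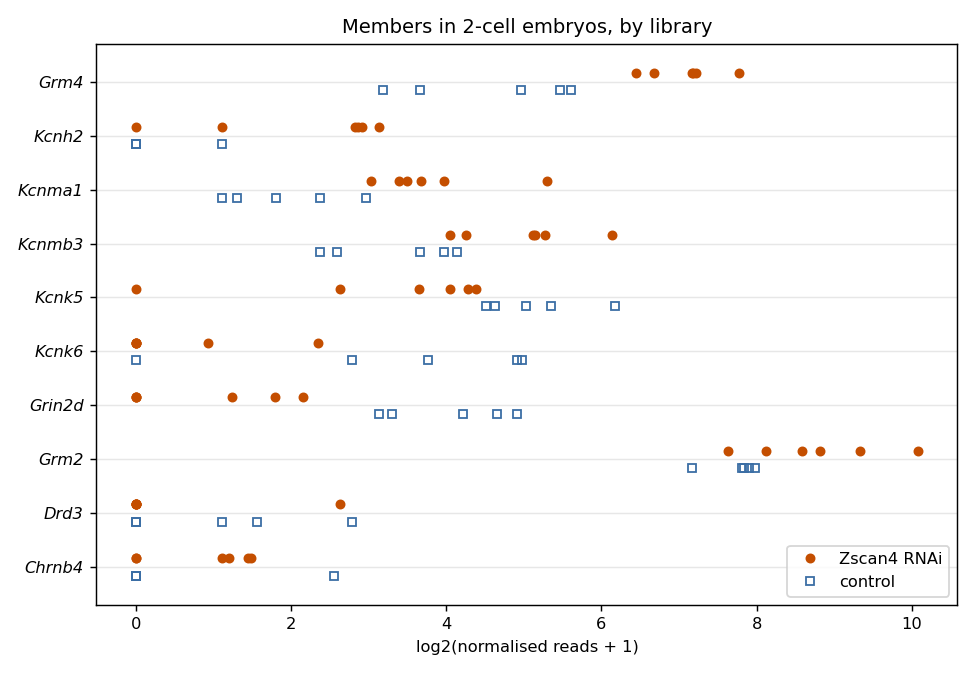
Normalised reads, as log2(value + 1), of members in 2-cell embryos, with 6 RNAi libraries as filled circles above 5 control libraries as open squares. Grm4 and Kcnma1 lie above all controls in every RNAi library and Grin2d and Kcnk5 below all controls, while Drd3 and Chrnb4 are close to 0 in both groups.

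In 60 members tested in both tables, the signs were set side by side; the tables hold different libraries and share no controls. The log2 fold change was negative with overexpression in ESCs and positive with RNAi in embryos for 30 of the 60, positive in both for 11, positive in ESCs and negative in embryos for 9 and negative in both for 10. Over all 13089 genes tested in both tables, 24.9% were negative in ESCs and positive in embryos. Taken by itself, the ESC sign was negative for 111 of the 159 members tested there, and the embryo sign positive for 49 of 71. The families were chosen with the ESC values known, so nothing is read from the excess over 24.9%. The 3 members past the threshold in both tables, Grm4, Kcnh2 and Kcnma1, were all lower with overexpression and higher with RNAi. Of these, Kcnh2 met the embryo filter only through its RNAi libraries. Kcnma1, with 1 read over the overexpression group, would not have met the ESC filter on its overexpression libraries alone. Over all 13089 genes, 110 (0.840%) were called lower in ESCs and higher in embryos. The embryo calls of Kcnh2 and Kcnma1 and the ESC call of Kcnma1 were lost in several settings, whereas Grm4 kept its embryo call in all of them. Grm4 kept its ESC call in 14 of 16 alternatives, with log2 fold changes from -4.93 to -4.07. The other 2 left out control 1 or control 2 with the tested genes kept, where the loss was not particular to Grm4.

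**Figure D4:**
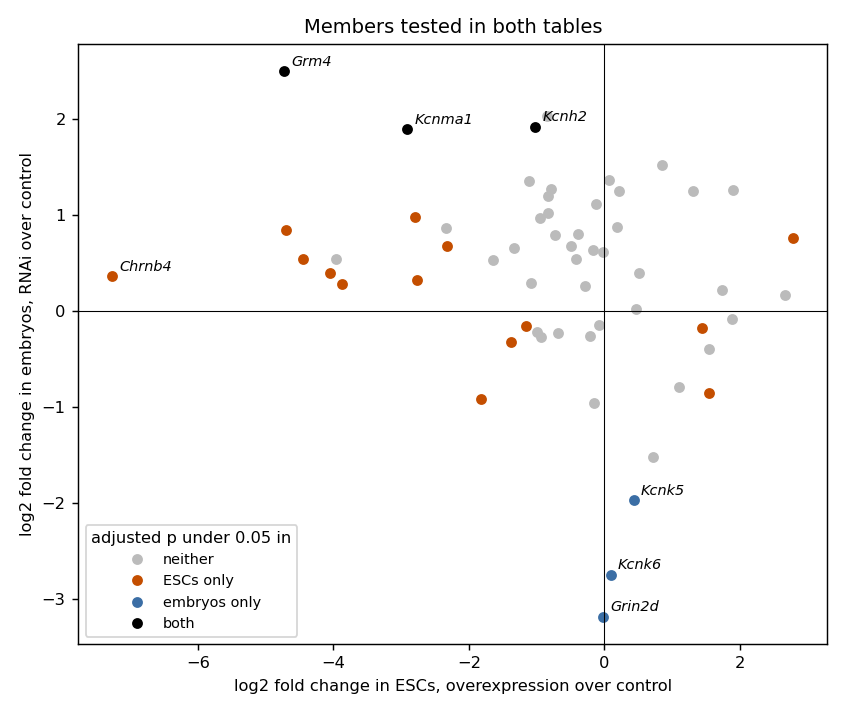
Log2 fold change in ESCs (overexpression over control, horizontal axis) against that in embryos (RNAi over control, vertical axis) for 59 of the 60 members tested in both, 1 point per gene, coloured by the comparison in which the adjusted p was under 0.05. Grm4, Kcnma1 and Kcnh2 are in the upper left, at ESC log2 fold changes of -4.73, -2.91 and -1.02, and Kcnk5, Kcnk6 and Grin2d at the bottom.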

How the data were processed

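Gene expression was analysed in 4 ESC libraries (2 with Zscan4 overexpression, 2 controls) and 11 libraries of 2-cell embryos (6 with Zscan4 RNAi, 5 controls), grouped by the genotype and title labels. The submitters' processing notes name Trimmomatic, HISAT2 and featureCounts with mm10; no version, annotation, strand setting or rule for reads matching several genes is given there. The labels give genomic DNA as library source and a DNA library kit, while every title says RNA-Seq, and the gene-level values were treated as RNA-Seq. The authors deposited 1 table for ESCs and 1 for embryos whose unit is a normalised signal, gene reads over a size factor for each library. The unit follows from the values, which are whole multiples of a fixed step per library, within 0.01 of 1 read, in 100% of values, and dividing by it gave back whole read counts. Gene positions are from GENCODE vM21 (mm10 coordinates), in which all 201 members were found by identifier or symbol.

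Each table was fitted separately in limma 3.58.1 with a trend on log2(value + 1). Genes needed 1 normalised read or more in 2 or more ESC libraries or 5 or more embryo libraries, with Benjamini-Hochberg adjustment over all genes tested and a threshold of 0.05. Fold changes on that scale understate the change of low genes. Where a group had no read, 3 reads summed over it served as the floor, and a group with 1 to 3 reads was given a ratio of summed reads with a 95% exact binomial interval; these cover counting error only. Alternatives were other pseudocounts, filters and scalings, voom with quality weights, edgeR 4.0.16 and DESeq2 1.42.0 on the recovered counts, the replicate number as a block, and leaving out each library. The embryo control columns are numbered 1 to 5 and the labels number them otherwise, so those numbers only name libraries. Replicates of each group differed by more than sampling noise (chi-square per degree of freedom 2.69 between the ESC controls, 128 between the overexpression libraries and 7.14 to 24.8 between embryo replicates), and each was counted separately. The scripts were tested on simulated data. The members, the classes, the gene lists and the named genes were chosen with earlier results of these data known. Named genes were Drd3, Chrnb4, up to 25 members past the threshold with the largest change, the most abundant member of each family and neighbouring members; others, among them Grin1, Cacnb3, Cacna1s, Kcns3, Scn2b and Scn3b, were named after their values were seen. Some members are counted in the totals but not reported here by name or in the plots by class and library.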

Additional observations from a re-analysis of the deposited data

Results flagged for a closer look

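In 10 of 44 groups checked, 1 library lay far from the others of its group in Dixon's test. The usual 1 in 20 holds for independent groups of normally distributed values and is no measure here. Where all other libraries are at 0, any read at all is flagged. In embryos with RNAi these were Drd3 at 5.21 normalised reads in library 6 (the other libraries at 0), Kcnk6 at 4.10 in library 2 (others at most 0.902), Kcnma1 at 38.3 in library 4 (others 7.21 to 14.8) and Chrna9, a nicotinic subunit, at 14.4 in library 5 (others at most 2.75). In control embryos they were Chrnb4 at 4.89 in library 5, Kcnh2 at 1.17 in library 4 (both with the other controls at 0) and Grm2 at 143 in library 2 (others 223 to 252). The summed levels of 3 families were flagged too. The dopamine receptors, at 5.21 in RNAi library 6, repeat the Drd3 value. The potassium channels stood at 469 in RNAi library 4 (others 222 to 299) and the GABA receptors at 79.2 in control library 5 (others 122 to 127). The Kcnma1 call was lost without RNAi library 4.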

How the results depend on the processing

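Across the alternative settings, 50 counts of members stayed within 1.5 times the reported count and 22 did not. In ESCs the 9 higher and 35 lower members moved to 7 and 15 in voom with quality weights. The edgeR test on whole reads called 4510 ESC genes and 2169 embryo genes, against 4843 and 2983 in limma. Leaving out 1 library at a time gave 0 to 14 higher and 0 to 50 lower, and with the filter applied again, an alternative chosen after seeing the data, 5 higher and 16 lower. With the replicate number as a block, 13 members were higher and 45 lower of 159, against 2943 and 3081 of all 20888 genes tested. The deviations of same-numbered ESC libraries correlated at r = -0.0072. The control libraries differed little from each other (median SD 0.09 on the log2 scale), so this value cannot show whether same-numbered libraries were paired. No paired analysis was possible for embryos because the control columns do not carry the numbers of the labels. Among embryos the 4 higher members became 2 with no filter, 7 with quantile normalisation and 7 with voom; the 3 lower members became 1 with a value of at least 10 and 0 with voom. Over all embryo genes, 1007 higher became 649 with no filter, 1396 with quantile normalisation and 1638 with voom. The 1976 lower became 1778 with a value of at least 10 and 1916 with voom. Leaving out 1 library at a time gave 1 to 6 higher and 1 to 3 lower members in embryos. Quantile normalisation moved the median log2 fold change of all embryo genes to 0.14 and edgeR to 0.09, against -0.03. The embryo value of Cacnb3, -0.18, changed sign to 0.52 in voom, 0.05 without RNAi library 5, 0.01 without RNAi library 6, 0.07 without control 1 and 0.42 without control 5 (range over left-out libraries -0.73 to 0.42), none past the threshold; the cause was not tested. The ESC call of Kcnma1 was lost in 10 of 12 alternatives and that of Kcnq1 in 8 of 16. In embryos 51 of 201 genes had no read; at this depth absence of a read does not show absence of the RNA.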
